A study of Mus musculus with 18 samples.

Results

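Iron handling genes were examined in testes of adult hypogonadal (hpg) mice that had been given follicle-stimulating hormone (FSH) for up to 72 h. The set was named by 9 gene symbols: the exporter Slc40a1, the uptake genes Tfrc, Steap3 and Slc11a2, the storage subunits Fth1 and Ftl1, the ferroxidase Cp, and the iron sensors Aco1 and Ireb2. A probe set, the group of array probes that reads 1 transcript, was a member if its annotation gave exactly 1 gene symbol and that symbol was on the list. This gave 26 of the 22690 probe sets on the array and covered 8 of the 9 genes, since the 3 probe sets of Ftl1 carried several symbols. Of the 26, 23 were tested, and the other 3 are the manufacturer's control probe sets for Tfrc. The set was selected on the log2 values of Slc40a1, which were lower after FSH, so the values of Slc40a1 are given as a description, with no test.

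The hpg mouse lacks gonadotrophin drive to the testis, and recombinant FSH (Gonal F) acts there on Sertoli cells, the somatic cells that carry its receptor. Males aged 10 weeks received subcutaneous injections of 8 IU in 0.2 ml of PBS every 12 h for 12 h (4 mice), 24 h (3 mice) or 72 h (4 mice) and were killed 1 hour after the last injection. Another 7 hpg males, left untreated and equally old, were the controls, and 1 MOE430A array was hybridised with whole-testis RNA for each mouse. The 12 h and 72 h groups were compared with controls 4 to 7, which they share, and the 24 h group with controls 1 to 3. No mouse received injections of PBS alone.

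Cells take up iron bound to its plasma carrier through the transferrin receptor, encoded by Tfrc. In the endosome the iron is reduced by Steap3 and passed to the cytosol by the divalent metal transporter encoded by Slc11a2. Iron that is not used is stored in a shell of ferritin heavy (Fth1) and light (Ftl1) chains or leaves through ferroportin (Slc40a1), the exporter of iron known in mammalian cells, with the help of a ferroxidase such as ceruloplasmin (Cp). The iron regulatory proteins, Aco1 and Ireb2, bind elements in several of these mRNAs when iron is low. In the testis, Sertoli cells supply iron to the germ cells behind the blood-testis barrier.

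The RefSeq promoter windows (GRCm38.p6, from 250 bases before to 50 after a transcription start) hold 7 of the 9 genes. The windows of Tfrc and Fth1 are shown because these genes had called changes in opposite directions, Tfrc higher at 72 h and Fth1 lower at 12 h. Capitals mark CCAAT, read on the other strand as ATTGG, in the upstream windows, and ACGTG and TGACG in the bases around the Tfrc start. The windows lie on the plus strand at chr16:32608646-32608895 for Tfrc upstream, chr16:32608890-32608919 for the Tfrc start and chr19:9982396-9982645 for Fth1 upstream.
Tfrc upstream: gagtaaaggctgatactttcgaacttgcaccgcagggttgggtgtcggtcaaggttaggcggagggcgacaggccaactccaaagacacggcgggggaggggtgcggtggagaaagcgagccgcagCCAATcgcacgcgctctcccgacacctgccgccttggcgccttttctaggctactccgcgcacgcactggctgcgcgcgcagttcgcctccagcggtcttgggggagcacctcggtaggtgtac
Tfrc start: gtgtACGTGcggaaggaagTGACGtagatc
Fth1 upstream: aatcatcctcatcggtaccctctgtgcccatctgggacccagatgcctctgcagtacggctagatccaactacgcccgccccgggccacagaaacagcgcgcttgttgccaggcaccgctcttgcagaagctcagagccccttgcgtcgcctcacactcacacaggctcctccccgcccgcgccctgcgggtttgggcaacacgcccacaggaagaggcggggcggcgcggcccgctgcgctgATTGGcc
In Tfrc the CCAAT lies from -124 to -120 relative to the start, ACGTG (the core of the hypoxia response element) from -2 to 3 and TGACG (the core of the cAMP response element) from 14 to 18. In Fth1 the CCAAT on the other strand lies from -7 to -3, and TGACG lies from 11 to 15, past the bases shown. Both strands were searched for the CCAAT box (CCAAT), the cAMP response element (TGACGTCA), its shorter core (TGACG, which also lies inside the whole element), the hypoxia core (ACGTG) and the antioxidant response core (TGACNNNGC). The 13 windows of the 7 genes held CCAAT in 5, TGACG in 3 and ACGTG in 2, and the whole cAMP element and the antioxidant core in 0. The 2 Tfrc windows overlap and share the same TGACG and the same ACGTG, so each is counted in both windows. By gene, TGACG was in 2 and ACGTG in 1. Among all 32851 windows of this length, CCAAT was in 37.4%, TGACG in 20.8%, ACGTG in 19.6%, TGACNNNGC in 12.4% and TGACGTCA in 1.79%. These matches describe letters and were not related to the measured changes.

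All values are on the log2 scale, so a difference of 1 is a doubling. A change was called when its p, adjusted over the 22626 probe sets tested by limma, was under 0.05, and each gene is represented by its brightest probe set, the one with the highest mean over the 18 arrays. The array medians lay between 4.44 and 4.64. The 6 arrays of the 24 h group and controls 1 to 3 stood apart from the other 12: a bacterial spike-in read 2.74 to 3.30 there and 8.00 to 8.92 on the others, and 18S ribosomal RNA read 9.07 to 11.69 against 3.35 to 3.70. The unspiked bacterial probe sets on those 6 arrays read 2.06 to 4.23, and levels in this range are called near the floor. Sertoli markers such as Clu, Sox9 and Wt1 (7.86 or higher on all arrays) and germ cell markers such as Dazl and Sycp3 (10.39 or higher) were present in the labelled testis, while the Sertoli marker Amh stayed at 1.54 to 1.60. Other markers of these lists were also low on some or all arrays. The Sertoli markers Rhox5 and Fshr read 2.67 to 8.68 and 3.88 to 6.78. The germ cell markers Zbtb16 (2.59 to 3.92) and Gfra1 (2.44 to 4.09) were near the floor. In whole testis, fewer cells of a type and less RNA per cell cannot be told apart.

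Slc40a1, which encodes the exporter ferroportin, was lower on all 11 FSH arrays than on any of its own controls. In the 12 h mice it read 5.54, 4.69, 4.88 and 5.32, and in the 72 h mice 4.42, 4.42, 4.48 and 4.01. Controls 4 to 7 read 7.09, 7.64, 7.03 and 7.25. The 24 h mice read 4.59, 4.30 and 4.79, and controls 1 to 3 read 8.20, 8.17 and 8.31. The lowest control is therefore above the highest treated mouse in each comparison, and the 72 h mice all lie below the 12 h mice. The difference was -2.15 ± 0.18 (SE) at 12 h, a level 4.43-fold lower. It was -3.67 ± 0.21 at 24 h, 12.7-fold lower, and -2.92 ± 0.18 at 72 h, 7.58-fold lower. The FSH values reach down to the levels near the floor, with the fourth 72 h mouse inside that range and the lowest 24 h mouse, at 4.30, just above it. At 72 h the mean was 0.77 below that at 12 h, with the 2 groups set against the same controls.

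The 2 control sets differed in Slc40a1, with means of 8.22 in controls 1 to 3 and 7.25 in controls 4 to 7. The mean after 24 h of FSH was 4.56, between 5.11 at 12 h and 4.33 at 72 h. With the 7 controls taken as 1 group, the differences were -2.56 at 12 h, -3.11 at 24 h and -3.34 at 72 h. The second Slc40a1 probe set was also lower on every FSH array than on its controls, by -1.48, -2.38 and -1.64. It read 3.86 to 4.19 on all 11 FSH arrays, which is near the floor. From 12 h to 72 h this probe set differed by -0.16, with overlap between the groups. Slc40a1 is abundant in macrophages that recycle iron. Over 16 macrophage markers the summed level was 9.78 to 10.13 at 12 h and 10.55 to 10.95 at 72 h, against 10.15 to 10.74 in controls 4 to 7. It was 9.72 to 9.99 at 24 h, against 9.85 to 10.08 in controls 1 to 3. Of the 16, 2 were called lower after 12 h, 2 lower and 1 higher after 24 h and 2 higher after 72 h, with median changes of -0.14, 0.07 and 0.13. Between 12 h and 72 h, 3 were called higher and 0 lower, with a median change of 0.31. Csf1r and Mpeg1 fell at 12 h (-0.85 and -1.18) and at 24 h (-0.73 and -0.95), Itgam rose at 24 h (0.16), and Cd68 and Mrc1 rose at 72 h (1.34 and 0.79). The macrophage markers Cd163, Cd14, Fcgr1 and Vsig4 were near the floor on all arrays. So was Itgam, the marker that rose at 24 h, at 2.36 to 2.72. The part of macrophages in the Slc40a1 values was not tested.

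**Figure D1:**
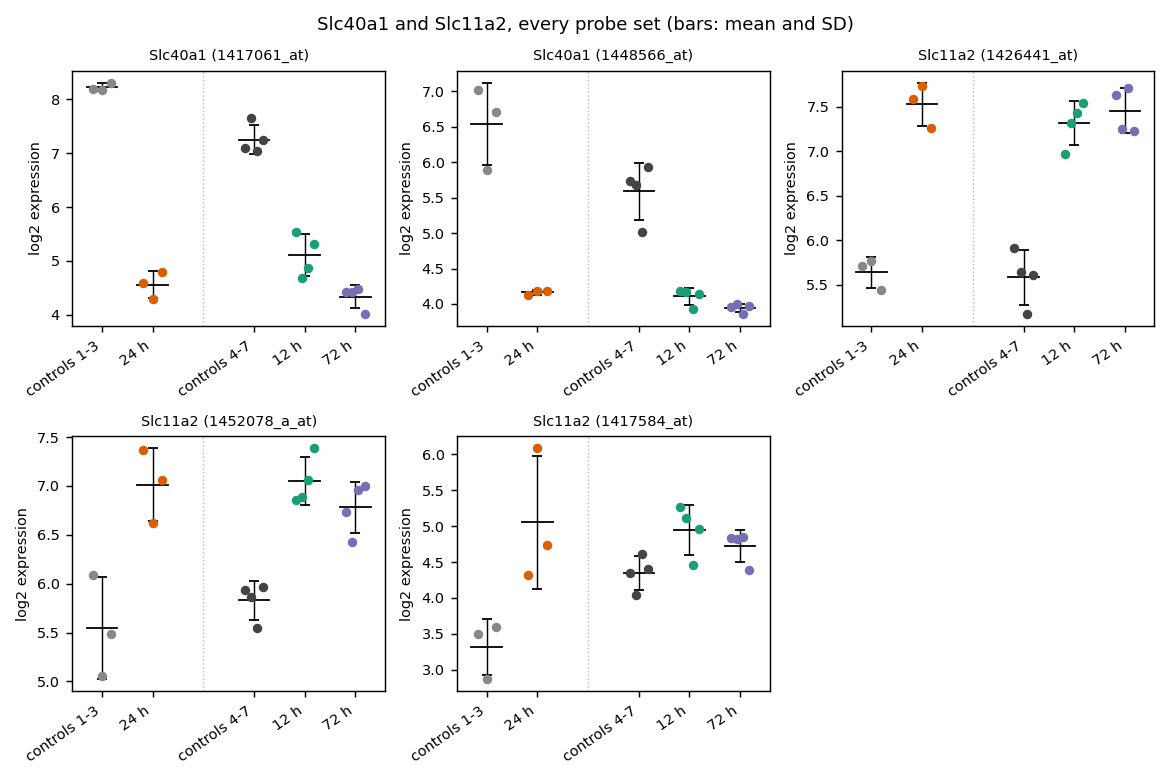
Log2 expression of each probe set of Slc40a1 and Slc11a2 on every array, with the group mean and SD as bars; each point is 1 mouse and the dotted line separates the 24 h group with controls 1 to 3 from the 12 h and 72 h groups with controls 4 to 7. The brightest Slc40a1 probe set is between 7.03 and 8.31 in controls and at 5.54 or lower after FSH, while the brightest Slc11a2 probe set is at 5.92 or lower in controls and at 6.98 or higher after FSH.

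Of the 7 other measured members, 1 was called higher (Slc11a2) and 1 lower (Fth1) at 12 h, where 5.35% of all probe sets were called (3.2% higher, 2.16% lower). At 24 h 1 was called higher (Slc11a2), against 13.4% of all probe sets (6.1% higher). At 72 h 2 were called higher (Slc11a2 and Tfrc), against 6.13% (3.63% higher). These percentages count every probe set, dim ones included, while each gene is read by its brightest. The median change of the 7 genes was 0.09, 0.20 and 0.20 at 12, 24 and 72 h, beside 0.00, 0.04 and 0.01 over all probe sets. By probe set, 2 of 21 were higher and 1 lower at 12 h, 3 higher and 1 lower at 24 h, and 4 higher at 72 h. Of all calls, 59.7% were higher at 12 h and 59.2% at 72 h, or 73.4% and 71.6% with each array centred on its median.

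Slc11a2, whose product moves ferrous iron out of the endosome, rose at each time. Its brightest probe set read 6.98, 7.31, 7.43 and 7.55 in the 12 h mice and 7.64, 7.25, 7.71 and 7.23 in the 72 h mice, against 5.92, 5.64, 5.17 and 5.61 in controls 4 to 7. In the 24 h mice it read 7.59, 7.74 and 7.26, against 5.71, 5.77 and 5.45 in controls 1 to 3. Every FSH array was above every control. After 12 h of FSH the log2 difference was 1.73 ± 0.17 (SE), or 3.32-fold, with an adjusted p of 2.86e-05. After 24 h it was 1.89 ± 0.20, or 3.69-fold, with 4.05e-05, and after 72 h 1.87 ± 0.17, or 3.66-fold, with 1.71e-05. The change from 12 h to 72 h was 0.14, with a 95% interval from -0.23 to 0.51 (adjusted p = 0.961), and the 24 h change exceeded the 12 h change by 0.15 (-0.41 to 0.72, adjusted p = 0.750). With the 24 h and control arrays paired by number, the 24 h call was lost on those 6 arrays alone (adjusted p = 0.0574, 2 residual degrees of freedom) and kept with the spread of all arrays (6.4e-05).

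The second Slc11a2 probe set also rose at each time, by 1.22, 1.47 and 0.95 (adjusted p = 0.00315, 0.00164 and 0.0161), again with no overlap between groups. The dimmest rose at 24 h only by the test, by 1.74 (adjusted p = 0.00554), and its values at 12 h (0.60, adjusted p = 0.397) and 72 h (0.37, adjusted p = 0.704) lay among overlapping arrays. Control levels of this dim probe set differed between the array sets, with means of 3.31 in controls 1 to 3 and 4.35 in controls 4 to 7. Over the 18 arrays, each taken as its deviation from the mean of its own controls, Slc11a2 and Slc40a1 had a Pearson correlation of -0.93, which follows the treatment and is a description. For the remaining members this correlation ranged from -0.56 (Tfrc) to 0.25 (Ireb2). The 5 genes whose pattern was most like that of Slc40a1 by this measure, among 11314 probe sets, were Fam184b (0.965), Rgs11 (0.964), Edn1 (0.963), Rin2 (0.963) and Srsf5 (0.961). All were lower after FSH in mean at the 3 times, which follows from how they were chosen.

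**Figure D2:**
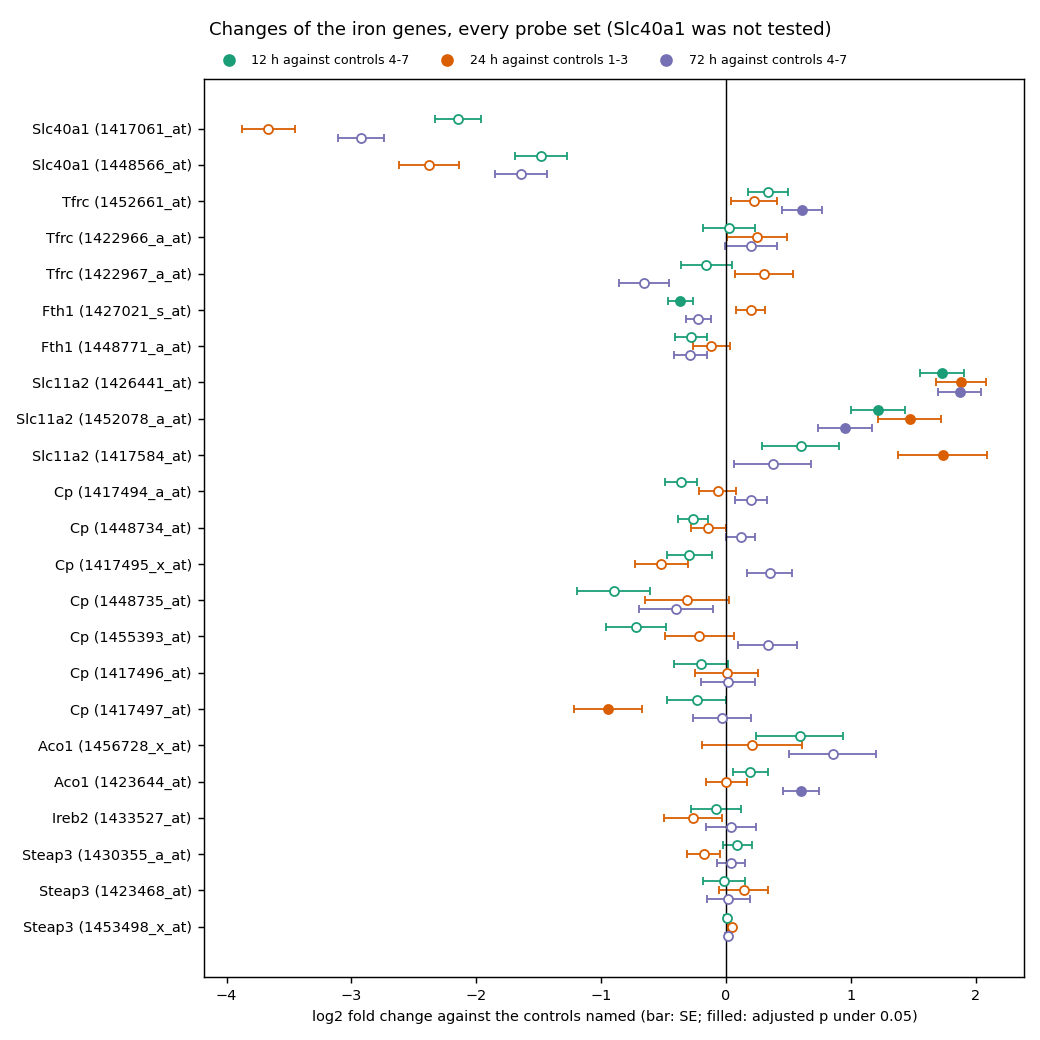
Log2 fold change of each probe set of the iron genes at 12 h and 72 h against controls 4 to 7 and at 24 h against controls 1 to 3, with the SE as bars; filled points have an adjusted p under 0.05, and Slc40a1 was not tested. Both Slc40a1 probe sets lie left of 0 at all 3 times and all 3 Slc11a2 probe sets lie right of it, while the other points lie within 1 of 0.

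Tfrc, the receptor that brings transferrin-bound iron into the cell, was higher at 72 h. It read 8.50, 8.32, 8.53 and 8.49 in the 72 h mice, all above controls 4 to 7 at 8.10, 7.87, 7.30 and 8.13. The rise was 0.61 ± 0.16 (SE), 1.53-fold, with an adjusted p of 0.0363. At 12 h the mice read 8.12 to 8.26, a difference of 0.34 (adjusted p = 0.340), and at 24 h the difference was 0.22 (adjusted p = 0.419), both with overlap. The 72 h call was lost when the fit held only the compared arrays (adjusted p = 0.121) and without any of the 72 h mice or without control 5 or 6 (0.0557 to 0.093). The second Tfrc probe set differed by 0.20 at 72 h (adjusted p = 0.827), and the dimmest, near the floor, was in mean lower by -0.65 (adjusted p = 0.0749).

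Steap3, the endosomal ferrireductase, had no call in any comparison. Its 3 probe sets read between 2.04 and 4.23 on all arrays, which is near the floor, so these arrays bear little on its changes. Its brightest probe set had a mean of 4.03 in controls 1 to 3 and 3.28 in controls 4 to 7, a gap larger than its changes of 0.09, -0.18 and 0.04 at 12, 24 and 72 h.

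Fth1, the ferritin heavy chain, was read near the top of the scale on all arrays. Its brightest probe set read 11.69, 12.25, 11.84 and 12.08 in the 12 h mice and 12.34, 12.49, 12.26 and 12.24 in controls 4 to 7. The groups overlapped through the second 12 h mouse, and the difference was -0.37 ± 0.10 (SE), 1.29-fold lower, with an adjusted p of 0.0468. At 72 h all 4 mice were below all 4 controls, but the difference of -0.22 did not pass (adjusted p = 0.269). At 24 h the 3 mice read 12.68, 12.86 and 12.78, above controls 1 to 3 at 12.53, 12.65 and 12.55, and the difference of 0.20 did not pass either (adjusted p = 0.247). The 24 h and 12 h changes differed by 0.57 ± 0.15 (adjusted p = 0.100). The 12 h call was lost when the fit held only the compared arrays (adjusted p = 0.202), with arrays centred on their medians (0.109), with dim probe sets left out (0.0535) and without any 1 of the arrays except the second 12 h mouse (up to 0.14). The other Fth1 probe set differed by -0.28, -0.12 and -0.28 and was not called.

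**Figure D3:**
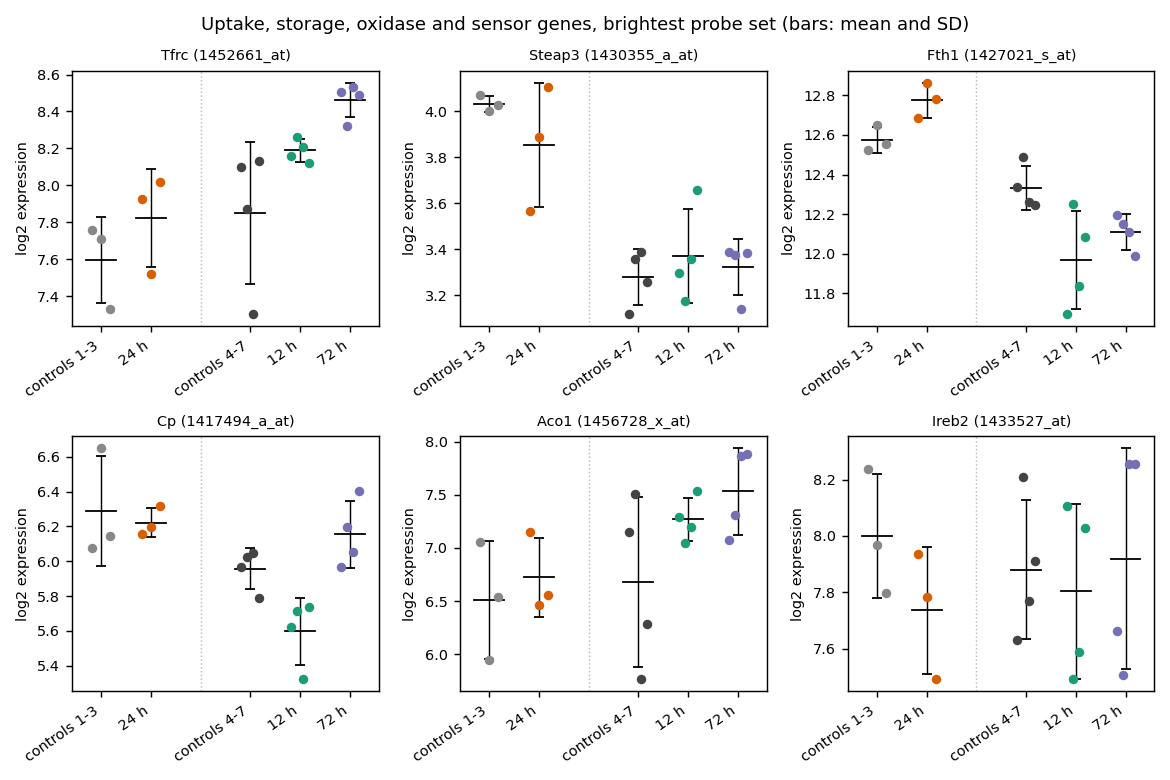
Log2 expression of the brightest probe set of Tfrc, Steap3, Fth1, Cp, Aco1 and Ireb2 on every array, with the group mean and SD as bars; each point is 1 mouse. The 72 h Tfrc values, 8.32 to 8.53, lie above all controls, and the 12 h Cp values, 5.32 to 5.74, lie below the 72 h values, 5.97 to 6.41.

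Cp, the copper ferroxidase that loads exported iron for the plasma carrier, differed between the 12 h and 72 h mice. Its brightest probe set read 5.62, 5.71, 5.32 and 5.74 in the 12 h mice and 5.97, 6.20, 6.05 and 6.41 in the 72 h mice, with no overlap. Cp rose from 12 h to 72 h by 0.56 ± 0.13 (SE), 1.47-fold (adjusted p = 0.0365), the only member called among the 7 in this comparison, in which 2.36% of all probe sets were called (1.37% higher, 0.999% lower). Against controls 4 to 7, at 5.97, 6.02, 6.05 and 5.79, the 12 h mice were all lower but the difference of -0.36 did not pass (adjusted p = 0.156), and at 72 h it was 0.20 (adjusted p = 0.553). The call was lost without any 1 of the arrays except the first 72 h mouse (adjusted p up to 0.128). It was also lost when the fit held only the compared arrays, and after quantile normalization or median centring. The 7 controls taken as 1 group, a trended and robust prior, and replicate numbers used as a block each ended it too.

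All 7 Cp probe sets had a higher mean at 72 h than at 12 h, by 0.20 to 1.06, but 1 other passed, at 1.06 ± 0.24 (adjusted p = 0.0307). The dimmest fell at 24 h, by -0.94 (adjusted p = 0.0343), near the floor. The liver is the main source of plasma ceruloplasmin. The summed level of 5 hepatocyte markers was 5.86 to 6.42 at 12 h and 5.95 to 6.75 at 72 h, above controls 4 to 7 at 5.48 to 5.80, and 5.96 to 6.11 at 24 h, against 5.34 to 5.87 in controls 1 to 3. Of the 5, Ahsg was called at 72 h, where it rose by 1.23, and it read 4.24 to 6.42 over all arrays. Alb, Apoa1, Ttr and Fgb were near the floor throughout, Alb at 2.08 to 2.19. The part of such transcripts in the Cp values was not tested.

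The iron regulatory proteins showed 1 call. The brightest Aco1 probe set differed by 0.59, 0.21 and 0.85 after 12, 24 and 72 h (adjusted p = 0.497, 0.747 and 0.204). Its control arrays ranged from 5.76 to 7.51. The second, tighter probe set read 6.30 to 6.83 in the 72 h mice and 5.71 to 6.23 in controls 4 to 7, and rose by 0.60 ± 0.14 (SE), 1.52-fold (adjusted p = 0.0202). At 12 h and 24 h it differed by 0.20 and 0.00. Ireb2 differed by -0.08, -0.26 and 0.04, with intervals from -0.51 to 0.35, -0.76 to 0.23 and -0.39 to 0.47, and was not called. For the difference between the 24 h and 12 h changes, 0 of the 7 members were called by limma, 1 (Fth1) had an unadjusted p under 0.05, and 0.875% of all probe sets were called (0.314% higher). With a trended and robust prior the counts were likewise 0 and 1.

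Around these members, 55 other iron and haem genes were measured out of 71 listed. At 12 h 5 were higher and 1 lower, at 24 h 8 higher and 6 lower, and at 72 h 4 higher and 3 lower, with median changes of 0.00, 0.05 and 0.02. These are 10.9%, 25.5% and 12.7% of the 55 genes, beside the 5.35%, 13.4% and 6.13% of all probe sets called. The 2 shares are unlike, since the genes are read by their brightest probe sets and the background includes dim ones. With dim probe sets left out (mean log2 over 4), 1303, 2487 and 1497 of 12255 were called, a larger share at each time. The share of the 55 genes is therefore not read as an excess. The 24 h count was 3 with only the compared arrays and 0 with the pairing by number on those 6 arrays, where limma called 0 of all 22626 probe sets and 4957 had an unadjusted p under 0.05. With the pairing and the spread of all arrays it was 16.

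Among the 12 genes of iron transport and cell entry, Scara5, a receptor for ferritin, changed most. It read 10.30, 10.31, 10.50 and 10.50 in the 12 h mice, 10.25, 10.14, 10.33 and 10.27 in the 72 h mice and 8.16, 8.51, 8.14 and 7.63 in controls 4 to 7. The 24 h mice read 10.08, 10.28 and 9.94, against 8.08, 7.95 and 7.58. Scara5 was 4.89-, 4.70- and 4.39-fold higher after 12, 24 and 72 h (adjusted p = 8.04e-07, 3.12e-06 and 1.33e-06), with all FSH arrays above all controls, while its dim second probe set differed by 0.10 or less. Slc39a14, a metal importer that also carries iron, rose by 1.15 in the 12 h mice (adjusted p = 0.00109) and by 1.20 in the 24 h mice (0.0017), and differed by 0.47 in the 72 h mice (0.159). Its second probe set rose at 24 h, by 0.59, and differed by 0.06 at 12 h. Slc39a8, a related importer, fell at 12 h by 0.74 (adjusted p = 0.0199) from a level near the floor. Tfr2, the second transferrin receptor, rose at 24 h by 0.71 near the floor, with its other probe set at -0.10, and this was the only call of the list for the 24 h change minus the 12 h change (0.72, adjusted p = 0.0139). The ferroxidase Heph, near the floor, rose from 12 h to 72 h by 0.45 (adjusted p = 0.0275).

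Of 6 genes in systemic control of iron by hepcidin, Neo1, Bmpr1a and Smad4, a co-receptor, a receptor and a signal transducer of bone morphogenetic proteins, fell at 24 h by 0.63, 0.70 and 0.76 (adjusted p = 0.00206, 0.00782 and 0.00911). Of the 4 other Bmpr1a probe sets 1 was called at 24 h (-0.56), and the second brightest differed by -0.07 (adjusted p = 0.795). Of the 2 other Smad4 probe sets, 1 was called (-0.64) and 1 was not (-0.55, adjusted p = 0.116). Neo1 was the only gene of the list with a called difference between the 24 h and 12 h changes (-0.79, adjusted p = 0.0228). Bmp6, a ligand, fell at 72 h by 0.59 near the floor. Among 5 storage, chaperone and sensing genes, the hypoxia factor Epas1 rose at 72 h by 0.58 near the floor, and no other call was made.

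Among 12 genes of mitochondrial iron and iron-sulphur clusters, Fdx1, the ferredoxin that passes electrons to mitochondrial cytochromes, rose by 0.78 in the 12 h mice (adjusted p = 0.00122) and by 0.81 in the 24 h mice (0.00192). It fell from 12 h to 72 h by 0.54 (adjusted p = 0.0313). At 24 h the mitochondrial iron importer Slc25a28 fell by 0.49 (adjusted p = 0.00121) and the cluster scaffold Nubp1 rose by 0.53 (adjusted p = 0.0308), with its other probe sets at 0.48 and 0.02 and not called. Of 20 haem genes, Alas1, the first enzyme of haem synthesis, rose by 0.83, 0.93 and 0.66 (adjusted p = 0.0123, 0.00908 and 0.0436), and its dimmer probe set differed by 0.35, 0.75 and 0.24, called at 24 h. Slc46a1, a transporter of folate and haem, rose by 0.74 in the 12 h mice (adjusted p = 0.0113) and 0.60 in the 24 h mice (0.0423), and fell from 12 h to 72 h by 0.84 (adjusted p = 0.0108). Its other probe set moved likewise at 12 h (1.17) and from 12 h to 72 h (-1.27), but differed by -0.06 at 24 h (adjusted p = 0.925). Flvcr2 rose by 1.06 at 24 h and 1.02 at 72 h. Ppox and Hmox2, enzymes of haem synthesis and breakdown, fell by 0.94 and 0.53 at 72 h, while the second Ppox probe set, near the floor, differed by -0.05 (adjusted p = 0.931). At 24 h that second probe set was called lower (-0.50, adjusted p = 0.0287), with overlap, and the brightest differed by -0.72 (adjusted p = 0.106). Uros fell by 0.54 at 24 h. Bach1, a haem-binding repressor named after its value was seen, fell by 0.81 at 24 h. Leaving out 1 array ended the 12 h call of Slc39a8, the calls of Heph and Fdx1 from 12 h to 72 h, the Neo1 call between the 24 h and 12 h changes, the 72 h calls of Alas1, Flvcr2, Ppox, Hmox2 and Epas1, and the 24 h calls of Nubp1, Slc46a1, Flvcr2, Uros and Bach1.

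Of 7 markers of steroid-making Leydig cells, 2 were called higher after 12 h and 3 after 24 h, and 2 were lower in the 72 h than in the 12 h mice. Star and Cyp17a1 rose at 12 h (2.53 and 2.86) and 24 h (2.50 and 4.62) and fell from 12 h to 72 h (-1.66 and -2.46), as Fdx1 and the brightest Slc46a1 probe set did, and Cyp11a1 rose at 24 h (4.03). The summed level of the 7 markers was 12.28 to 12.80 at 12 h, 11.72 to 11.98 at 72 h and 11.40 to 12.68 in controls 4 to 7. It was 12.46 to 13.04 at 24 h, above controls 1 to 3 at 11.91 to 12.17. Hsd17b3 and Sult1e1 of that list were near the floor, and the part of these cells in the iron gene values was not tested. The 7 red blood cell markers had 0 calls by limma, 0 with an unadjusted p under 0.05 and summed levels of 5.53 to 6.30. Of these, Hba-a1, Alas2, Slc4a1, Epb42 and Klf1 were near or below the floor on all arrays. Hbb-b2 and Sptb reached at most 4.64 and 4.46, so these arrays bear little on changes in red blood cells. The 15 Sertoli markers had 5, 3 and 5 calls higher and 1, 1 and 1 lower after 12, 24 and 72 h, with summed levels from 14.96 to 15.45 over all arrays. The 11 germ cell markers had 2, 4 and 2 calls lower, and the 10 endothelial markers had 1 call, lower, at 12 h. The 7 peritubular myoid markers had 2, 1 and 1 calls higher after 12, 24 and 72 h and 1 lower from 12 h to 72 h. Their summed level was 12.58 to 12.97 at 12 h and 12.40 to 12.77 at 72 h, against 11.87 to 12.63 in controls 4 to 7, and 12.37 to 12.74 at 24 h, against 12.08 to 12.39 in controls 1 to 3. The part of myoid cells in the iron gene values was not tested.

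**Figure D4:**
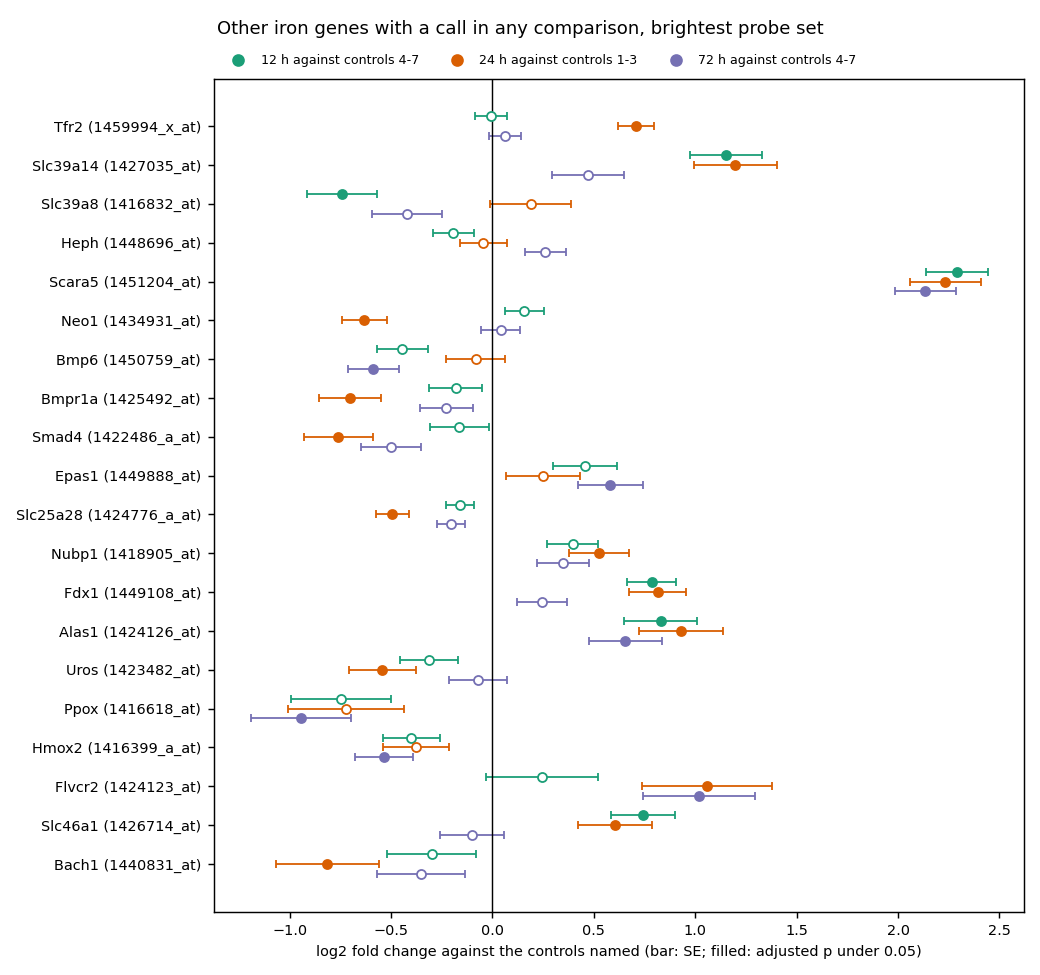
Log2 fold change of the brightest probe set of each other iron gene called in any comparison, at 12 h and 72 h against controls 4 to 7 and at 24 h against controls 1 to 3, with the SE as bars; filled points have an adjusted p under 0.05. Scara5 lies beyond 2 at all 3 times, Slc39a14 lies beyond 1 at 12 h and 24 h, and Flvcr2 lies near 1 at 24 h and 72 h.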

How the data were processed

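Per the labels, RNA from the testis of 1 mouse was labelled and hybridised to each of the 18 MOE430A arrays. The authors deposited 1 table of log2 expression values, a scale read from its range of 1.04 to 15.16. Of RMA and GCRMA, both listed in the submitters' processing notes, the one behind the table is not given in the sources used here. Gene symbols are from the platform annotation: 20380 tested probe sets had 1 symbol, 691 several and 1555 none. Without scanner files no detection call or depth was available, and the number of arrays limits the precision.

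The values were fitted as deposited with limma 3.58.1 in R 4.3.3: 1 fit over the 18 arrays with 5 group means, two-sided tests and Benjamini-Hochberg adjustment over 22626 probe sets (64 control probe sets left out). A range beside a difference is its 95% confidence interval. The scripts were tested on simulated data. The 24 h arrays and controls with the same number deviated together (r = 0.18, 0.34 and 0.41). An alternative fit therefore paired them by number, from these data and not from the labels. The main fit, which gave the calls reported above, was not paired.

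The members, lists and comparisons were chosen with earlier results of these data known. All 9 members are named; of the other iron genes, those called are named, up to the 4 smallest p-values in each list and comparison. Alternatives were the 7 controls as 1 group, only the compared arrays, a filter on dim probe sets (mean log2 over 4), quantile normalization, median centring, a trended and robust prior, pairing by number and leaving out each array. The pairing with a spread shared over all arrays, and the other iron genes under each alternative, were added after seeing the data.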

Additional observations from a re-analysis of the deposited data

Results flagged for a closer look

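In groups of 4 mice, a value was noted when its gap to the nearest other was above Dixon's critical share of the group's range, which chance alone gives in about 1 in 20 groups; 78 groups of the member probe sets were examined. For the brightest Slc40a1 probe set, the fourth 72 h mouse was low at 4.01, with the other 3 at 4.42 to 4.48, and remained below all controls. In Slc11a2 the same mouse was low in the dimmest probe set, at 4.39 against 4.83 to 4.85. Among Tfrc probe sets, the same mouse was high at 5.82 in the 3′ control probe set (others 5.57 to 5.58). The second 12 h mouse was high at 3.86 (others 3.59 to 3.60) and the third 72 h mouse low at 3.63 (others 3.71 to 3.72) in the 5′ control probe set, and control 5 was high at 4.31 (others 3.52 to 3.63) in the dimmest. The dimmest Cp probe set was low in the fourth 12 h mouse, at 3.78 against 3.86 to 3.88, and Steap3 was low in the third 72 h mouse, at 3.14 against 3.38 to 3.39.

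Among the 7 members tested, Cp was the one whose level differed between the FSH times by the test of the difference itself: from 12 h to 72 h it rose by 0.56 in its brightest probe set and by 1.06 in another (limma, adjusted p = 0.0365 and 0.0307). The call of the brightest was lost without any 1 of the arrays except the first 72 h mouse, and under most of the other alternatives. Slc40a1 differed between the same groups by -0.77 in its brightest probe set and by -0.16, with overlap, in the other. It was not tested.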

How the results depend on the processing

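Slc11a2 kept its direction and its call against controls at 12 h and 72 h under every alternative for its brightest probe set, and at 24 h under all but the pairing on 6 arrays; leaving out 1 array gave 1.59 to 1.85 at 12 h and 1.78 to 2.02 at 24 h. The Slc40a1 differences without 1 array were -2.29 to -2.01 at 12 h and -3.78 to -3.53 at 24 h. The array number, and for Steap3 and the dim probe sets a level near the floor, limit these values; the causes of the changes below were not tested, except that fits on fewer arrays have fewer residual degrees of freedom.

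With the 7 controls as 1 group, 8137 probe sets were called at 24 h and 9098 for the 24 h minus 12 h change, 2 members at 24 h, 2 for that difference and 0 for 72 h against 12 h, and 16 other iron genes for the difference; 64.9% of the 24 h calls were higher, against 45.7%. With only the compared arrays, 393 and 51 probe sets were called at 24 h and for the difference, 1 member at 12 h, 1 at 72 h and 0 for 72 h against 12 h, and 3 and 0 iron genes at 24 h and for the difference. The replicate block (pairing by number) gave 0 probe sets, 0 members and 0 iron genes at 24 h, or 4827 probe sets with the spread of all arrays, and for 72 h against 12 h, where the numbers do not pair the arrays (r = 0.01 to 0.13), 98, 0 and 0 (limma; 4957 and 3620 probe sets, 3 and 2 members and 20 and 12 iron genes had an unadjusted p under 0.05). The block changed no other call of a member. The filter gave 1 member at 12 h and 1 iron gene for the difference, and 30.9% of its 24 h calls were higher. Quantile normalization gave 0 members for 72 h against 12 h and 1 iron gene for the difference. Median centring gave 1 member at 12 h and 0 for 72 h against 12 h; 24.6% of its calls for the difference were higher, against 35.9%. The trended and robust prior gave 0 members for 72 h against 12 h.

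Leaving out 1 array gave 1 to 2 members called at 12 h, 1 to 2 at 72 h, 0 to 1 for 72 h against 12 h and 0 to 1 for the difference. It gave 2 to 5 other iron genes at 72 h, 1 to 3 for 72 h against 12 h and 1 to 3 for the difference. It gave 1678 (without control 1) to 3848 probe sets at 24 h, 290 (without the third 12 h mouse) to 500 for 72 h against 12 h, and 94 (without the fourth 12 h mouse) to 756 (without the first 24 h mouse) for the difference.

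Directions turned in 42 cases, none of them called. With the 7 controls, Steap3 became -0.23, 0.25 and -0.28 at 12, 24 and 72 h and 0.48 for the difference, Cp 0.12 at 24 h and Ireb2 -0.0123 at 72 h; quantile normalization gave Cp 0.0638 at 24 h. Other probe sets turned Tfrc to -0.16 (12 h), -0.65 (72 h), -0.50 (72 h against 12 h), 0.22 and 0.46 (difference); Fth1 to -0.12 (24 h) and -0.001 (72 h against 12 h); Slc11a2 to -0.27 and -0.22 (72 h against 12 h); Cp to 0.0049 (24 h), -0.40 and -0.0325 (72 h), -0.22 and -0.71 (difference); and Steap3 to -0.0125 (12 h), 0.14 and 0.0468 (24 h), 0.0331 and 0.014 (72 h against 12 h), 0.16 and 0.0414 (difference). Without 1 array, Ireb2 ranged from -0.18 to 0.0323 at 12 h and -0.0724 to 0.18 at 72 h, Steap3 from -0.0037 to 0.16 at 12 h, -0.12 to 0.0457 for 72 h against 12 h and -0.0118 to 0.10 at 72 h, Aco1 from -0.075 to 0.48 and Cp from -0.17 to 0.11 at 24 h, and Tfrc from -0.25 to 0.0708 for the difference.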

Other observations

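The manufacturer's control probe sets for Tfrc, which read the 3′ end, the middle and the 5′ end of its mRNA, were outside the tests. On the 24 h arrays the 5′ probe set read 3.95 to 4.78, above controls 1 to 3 at 3.76 to 3.92, and the 3′ probe set read 5.72 to 6.11, above 5.52 to 5.64. The middle probe set, at 3.53 to 3.97, overlapped controls 1 to 3 at 3.25 to 3.72. At 12 h and 72 h the 3′ and 5′ probe sets lay within or across the range of controls 4 to 7, at 5.41 to 5.90 for the 3′ and 3.55 to 3.83 for the 5′ probe set.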
